A study of Homo sapiens with 6 samples.

Results

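The minichromosome maintenance (MCM) family was followed in SW872 cells with and without Apatinib. Its members were the rows of the count table whose gene name was MCM2, MCM3, MCM4, MCM5, MCM6, MCM7, MCM8, MCM9, MCM10 or MCMBP. These were 10 genes of 57773 rows in all, and all 10 passed the filter on low counts, which left 16290 genes to test. SW872 is an established human liposarcoma cell line. The Apatinib group was SW872 cells incubated with 18 μM Apatinib, a small-molecule inhibitor of VEGF receptor kinases, for 24 h, and the control group was SW872 cells with no treatment. Both groups were grown in RPMI-1640 medium with serum, no vehicle was named for the control group, and a single cell line stood for the disease. RNA of 3 replicates in each group was sequenced.

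MCM2 to MCM7 encode the subunits of the ring-shaped replicative helicase, which is loaded on DNA as an inactive hexamer in G1 phase and unwinds the template in S phase once CDC45 and the GINS complex have joined it. MCM10 binds the assembled helicase and is needed for it to start unwinding. MCM8 and MCM9 form a separate complex that acts in homologous recombination, and MCMBP binds MCM proteins outside chromatin and helps to assemble the hexamer. Genes of the family are known as E2F targets whose transcripts rise as cells enter the cycle, and their products are widely used as markers of proliferating cells.

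Expression was first checked against the label of the line. VIM, a mesenchymal intermediate filament gene, was listed at 881 to 1263 FPKM (fragments scaled to transcript length and to the mapped fragments of the library), PDGFRB at 26.8 to 40.8 FPKM and PPARG at 19.7 to 27.1 FPKM, whereas the mature adipocyte genes FABP4 and ADIPOQ were listed at 0 in all 6 replicates, and CEBPA and PLIN1 at no more than 0.319 and 0.386 FPKM. Other markers of the same list were low, with COL1A1 at 3.49 to 4.57, THY1 at 1.02 to 1.81, LPL at 1.54 to 4.45 and MDM2 at 3.76 to 5.73 FPKM, while CDK4 was at 58.9 to 73.9 FPKM. The epithelial markers EPCAM, CDH1 and KRT5 had at most 7 counts in a replicate, the endothelial markers CDH5, VWF and KDR at most 56, and the blood markers PTPRC, CD3E, CD68 and HBB at most 2. Summed levels in the Apatinib and the control group were 1155 to 1418 and 1015 to 1138 FPKM for the 14 mesenchymal and adipocytic markers, most of it from VIM, 0.0396 to 0.139 and 0.0477 to 0.133 FPKM for the 3 epithelial markers, and 0.356 to 0.466 and 0.428 to 0.538 FPKM for the 3 endothelial markers. The 4 blood markers summed to 6.78 to 11.9 and 1.79 to 3.33 FPKM, mostly from CD68, which had at most 1 count in a replicate. CEBPA had 0 counts in all 6 replicates but 0.0579 to 0.319 FPKM. The deposited counts and FPKM values thus treat both genes differently, and whether other genes are affected was not examined. The part of such differences in the results below was not tested. Total counts were 17043314 to 22067558 per replicate. Counts of control replicates 1 and 2 were the most alike, since the chi-square of their counts averaged 2.27 over genes, for which sampling noise alone gives about 1, against 18.2 to 44.5 for the remaining pairs of one group. They differed by more than sampling noise, but this cannot tell whether they came from separate cultures. Since the study describes 3 biological replicates per group, they were kept as separate samples. The counts of called genes, the groups that did not overlap, the levels, the shares and the nearest genes are also given without each of them.

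Promoter sequences of the members were searched as a description of sequence, and a link to the expression values was not tested. The RefSeq promoter table (GRCh38.p14) held 8 of the 10 genes, with windows of 250 bases before to 50 bases after the gene start. MCM4 and MCM5 had no entry. The letters TTCCCGC or TTGGCGC or TTGCCGC or TTCGCGC, heptamers of the E2F type, were searched on both strands and were found in 5 of the 8 windows (MCM2, MCM3, MCM6, MCM7 and MCM8), where 13% of 27305 genes held one of them. The letters CCAAT, the core of the NF-Y motif, were found on one or the other strand in 6 of the 8 windows (MCM3, MCM6, MCM7, MCM8, MCM9 and MCM10), against 35.7% of all genes. The letters TTTGAA, the core of the cell cycle homology region of genes expressed late in the cycle, were in 0 of the 8 and in 15.5% of all genes. The 250 bases before the start are printed below for 3 genes of the hexamer and for both accessory genes that passed the test, 5′ to 3′ on the strand of the gene, with the E2F heptamers and CCAAT, or their reverse complements, in capitals. For MCM7, which has 3 starts in the table, the most upstream one is shown.
MCM3, minus strand, chr6:52284743-52284992: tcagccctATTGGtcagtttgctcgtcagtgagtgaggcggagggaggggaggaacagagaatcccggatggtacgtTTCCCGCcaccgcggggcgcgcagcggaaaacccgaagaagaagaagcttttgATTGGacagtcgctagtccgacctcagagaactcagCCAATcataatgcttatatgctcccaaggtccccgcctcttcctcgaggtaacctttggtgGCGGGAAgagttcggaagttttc
MCM6, minus strand, chr2:135876444-135876693: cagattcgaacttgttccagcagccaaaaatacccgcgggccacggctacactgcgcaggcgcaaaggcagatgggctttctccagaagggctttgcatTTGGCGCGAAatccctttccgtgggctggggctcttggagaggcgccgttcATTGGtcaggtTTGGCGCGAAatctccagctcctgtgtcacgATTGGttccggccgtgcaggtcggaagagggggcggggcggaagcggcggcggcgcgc
MCM7, minus strand, chr7:100101398-100101647: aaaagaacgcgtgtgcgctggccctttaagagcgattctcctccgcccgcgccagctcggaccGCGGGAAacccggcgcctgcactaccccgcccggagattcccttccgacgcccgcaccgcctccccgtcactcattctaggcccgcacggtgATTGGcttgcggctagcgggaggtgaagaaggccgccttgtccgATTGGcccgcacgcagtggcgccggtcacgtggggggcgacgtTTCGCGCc
MCM8, plus strand, chr20:5950402-5950651: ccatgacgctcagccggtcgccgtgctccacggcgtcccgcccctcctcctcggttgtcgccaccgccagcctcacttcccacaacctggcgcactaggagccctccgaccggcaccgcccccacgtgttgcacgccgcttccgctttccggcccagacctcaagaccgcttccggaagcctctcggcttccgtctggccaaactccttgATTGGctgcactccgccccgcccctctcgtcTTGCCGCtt
MCM10, plus strand, chr10:13161308-13161557: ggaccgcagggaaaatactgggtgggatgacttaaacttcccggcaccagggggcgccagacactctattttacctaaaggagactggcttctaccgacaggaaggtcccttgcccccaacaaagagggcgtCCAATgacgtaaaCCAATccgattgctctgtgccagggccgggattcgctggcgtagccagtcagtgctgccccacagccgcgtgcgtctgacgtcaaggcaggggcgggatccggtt

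MCM6 held a pair of overlapping heptamers, one on each strand, that began 151 bases before the start, and a second such pair that began 89 bases before it. Its 2 CCAAT boxes were both on the opposite strand. MCM3 held heptamers in the printed length that began 173 and 23 bases before the start, and 3 CCAAT boxes. In the printed length of MCM8 one heptamer lay 9 bases and one CCAAT box 40 bases before the start. MCM10 held 2 CCAAT boxes, at 118 and 105 bases before the start, and no heptamer of this form in the window. In MCM2 both heptamers lay just after the start, outside the printed length, and the MCMBP window held none of the letters searched. A match of letters is a description, and binding at these places was not measured.

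All 10 members had a lower mean in the Apatinib group than in the control group, where 49.7% of all genes tested did. In all 10 the groups did not overlap in CPM (counts per library size scaled with TMM factors), with each Apatinib value under each control value, a pattern found in 15.7% of the genes tested. Without control replicate 1 or without control replicate 2 it was again 10 of 10 members, against 17.7% of all genes in either case, and leaving out a replicate cannot make groups overlap. With edgeR's quasi-likelihood test, MCM10, MCM8, MCM4 and MCM3 fell, that is, their FDR was under 0.05 and their log2 fold change was below -0.5. These are 4 of 10 members called lower, and 5.48% of all genes tested were. No member was called higher, against 5.97% of all genes. MCM6 passed the FDR limit but not the fold change limit, which made 5 of 10 members lower on the FDR alone, against 6.07% of all genes. An unadjusted p under 0.05 in the lower direction was found for 9 of 10 members and for 15.3% of all genes. The median log2 fold change was -0.54 over the 10 members and 0.00 over all genes tested. In cultures sequenced in bulk, fewer cells that express a gene and less RNA per cell cannot be told apart.

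**Figure D1:**
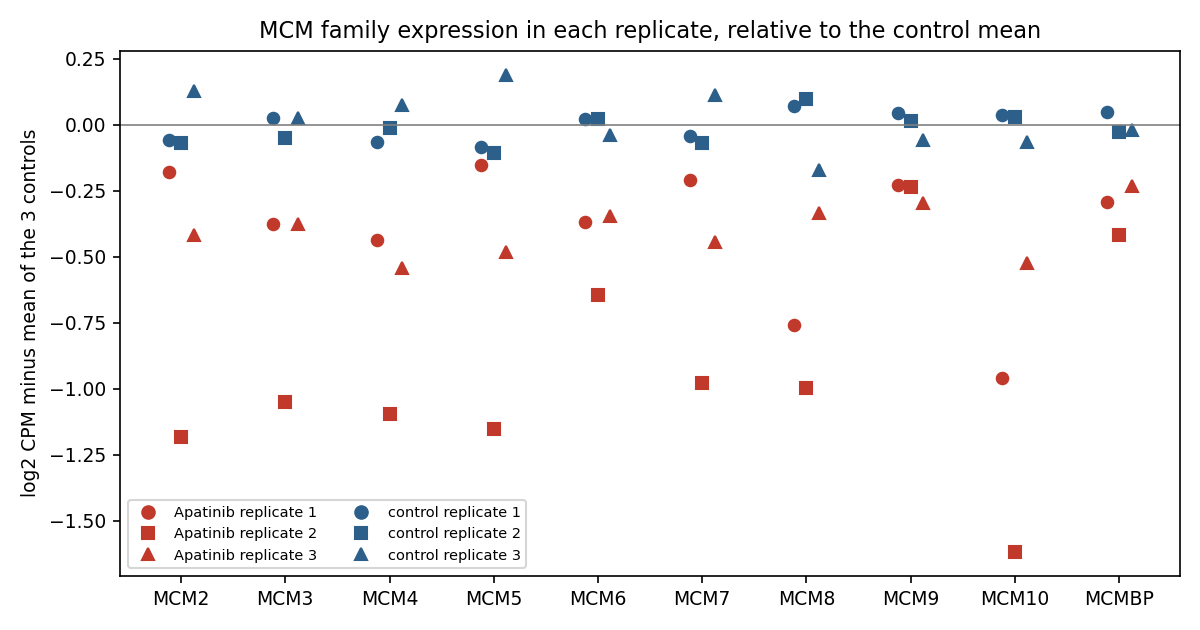
Log2 CPM of each MCM gene (x axis) in each of the 6 replicates, minus the mean of the 3 control replicates (y axis, log2 units). Red symbols are Apatinib replicates and blue symbols control replicates, and the shape gives the replicate number. All red symbols lie below all blue symbols of the same gene, and Apatinib replicate 2 is the lowest in 9 of the 10 genes.

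Among the hexamer genes, MCM4 (ENSG00000104738) had the largest fall. Its level was 252, 159 and 234 CPM in Apatinib replicates 1 to 3, and 326, 338 and 359 CPM in control replicates 1 to 3. The highest Apatinib value was thus well below the lowest control value. The means were 215 ± 49.1 and 341 ± 16.7 CPM (SD, 3 replicates in each group), and the estimate on the log2 scale was -0.66 (SE 0.162, 95% interval -1.02 to -0.31, edgeR FDR = 0.0255). MCM3 (ENSG00000112118) lies next to MCM5 in the ring. Its level was 174, 109 and 174 CPM with Apatinib, against 229, 218 and 229 CPM in the control, so that the 3 control replicates lay within a narrow band and 1 Apatinib replicate stood apart from the other 2. The log2 fold change was -0.57 (SE 0.168, 95% interval -0.94 to -0.20, edgeR FDR = 0.0475), just inside the FDR limit.

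MCM2 and MCM5, whose proteins form the gate of the ring, showed the same order of replicates. MCM2 (ENSG00000073111) had 172, 85.7 and 146 CPM with Apatinib and 187, 185 and 213 CPM in the control. MCM5 (ENSG00000100297) had 152, 75.9 and 121 CPM with Apatinib and 159, 157 and 193 CPM in the control. In both genes Apatinib replicate 1 lay close under the controls, Apatinib replicate 2 lay far under them, and control replicate 3 was the highest of the 6. The log2 fold changes were -0.54 for MCM2 (SE 0.207, edgeR FDR = 0.105) and -0.55 for MCM5 (SE 0.208, edgeR FDR = 0.104). Neither passed the test, although their estimates were near that of MCM3, whose SE was smaller.

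MCM7 (ENSG00000166508), the hexamer gene with the most RNA, had 358, 210 and 304 CPM with Apatinib and 402, 394 and 447 CPM in the control. Its log2 fold change of -0.51 did not pass the test (SE 0.173, 95% interval -0.89 to -0.13, edgeR FDR = 0.0725). MCM6 (ENSG00000076003) varied least of the 6 among the Apatinib replicates. It had 106, 87.9 and 108 CPM with Apatinib and 139, 139 and 134 CPM in the control, with means of 101 ± 11.2 and 137 ± 3.24 CPM. Its log2 fold change was -0.45 (SE 0.121, edgeR FDR = 0.0363), short of the limit of 0.5 in size. Of the 6 hexamer genes, 2 were called lower (5.48% of all genes), 3 passed the FDR limit (6.07%) and 6 had an unadjusted p under 0.05 (15.3%), and the median was -0.54.

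**Figure D2:**
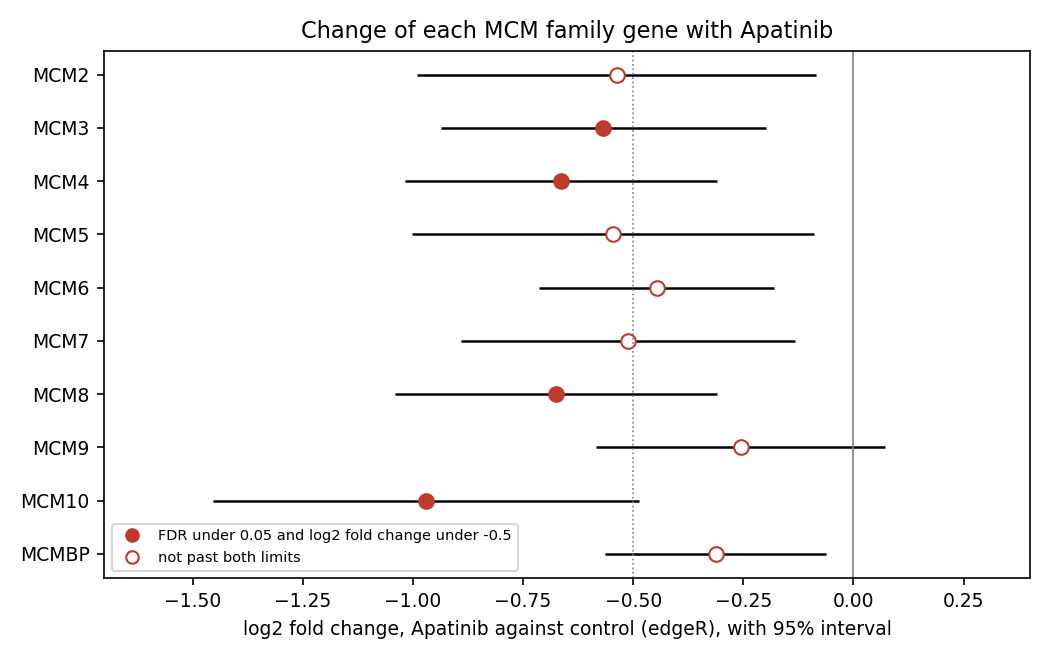
Log2 fold change of each MCM gene between the Apatinib and the control group (x axis, edgeR) with its 95% confidence interval. Filled circles passed both limits, the dotted line marks -0.5, and the interval of MCM9 alone crosses 0.

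The largest estimate in the family was that of MCM10 (ENSG00000065328), the activator of the helicase. It had 289, 188 and 398 counts with Apatinib and 582, 609 and 683 counts in the control, or 16.8, 10.6 and 22.8 CPM against 33.6, 33.5 and 31.3 CPM. The control values lay close together, and the highest Apatinib replicate was under all of them. The mean with Apatinib was 51.0% of the control mean, and the log2 fold change was -0.97 (SE 0.221, 95% interval -1.45 to -0.49, edgeR FDR = 0.020). Whether the change of MCM10 differed from those of the hexamer genes was not tested, and the intervals overlap.

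The repair pair MCM8 and MCM9 gave different values. MCM8 (ENSG00000125885) had 53, 45.0 and 71.3 CPM with Apatinib and 94.4, 96.1 and 79.8 CPM in the control. Here Apatinib replicate 3 was the highest of its group and control replicate 3 the lowest of its own, so the gap between the groups was narrow at that end. The log2 fold change was -0.67 (SE 0.167, 95% interval -1.04 to -0.31, edgeR FDR = 0.0271). MCM9 (ENSG00000111877), the least expressed member, had 158, 162 and 153 counts with Apatinib and 193, 198 and 226 counts in the control, or 9.19, 9.14 and 8.76 CPM against 11.1, 10.9 and 10.4 CPM. The replicates of each group lay close together, but the log2 fold change of -0.26 did not pass the test (SE 0.15, 95% interval -0.59 to 0.07, edgeR FDR = 0.274). In FPKM the groups overlapped for MCM9, at 1.5 to 1.88 with Apatinib and 1.63 to 2.33 in the control. The difference between the changes of MCM8 and MCM9 was not tested.

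MCMBP (ENSG00000197771), the binding protein that helps to assemble the hexamer, had 74.7, 68.5 and 78.0 CPM with Apatinib and 94.8, 89.8 and 90.2 CPM in the control. The groups were apart and each was narrow, with means of 73.8 ± 4.82 and 91.6 ± 2.74 CPM. The log2 fold change was -0.31 (SE 0.114, 95% interval -0.56 to -0.06, edgeR FDR = 0.0911), which did not pass the test.

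The spread within the Apatinib group lay mostly in 1 replicate. Apatinib replicate 2 was the lowest of its group in 9 of 10 members, with MCM9 as the exception. Relative to the control mean, this replicate lay at -1.18 log2 units for MCM2, -1.15 for MCM5, -1.09 for MCM4, -1.05 for MCM3, -0.98 for MCM7 and -0.64 for MCM6, while Apatinib replicate 1 lay at -0.18, -0.15, -0.43, -0.38, -0.21 and -0.37 for the same genes. In MCM8 and MCM10, Apatinib replicate 1 was also far below the controls, at -0.76 and -0.96, and Apatinib replicate 3 was nearest to them, at -0.33 and -0.52. Apatinib replicate 3 was nearest for MCM3, MCM6 and MCMBP too, at -0.37, -0.35 and -0.23. There Apatinib replicate 1 lay close to it, at -0.38, -0.37 and -0.29. Summed counts of the 6 hexamer genes were 20868, 12899 and 18993 in Apatinib replicates 1 to 3, against 24999, 26038 and 34373 in control replicates 1 to 3. Total counts stood in the same order within each group, at 18081919, 17275850 and 17352210 in Apatinib replicates 1 to 3, and the CPM values are scaled for them.

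Calls in the family depended on single replicates. All 10 log2 fold changes were below 0 in each of the 6 fits that left out 1 replicate. Groups that do not overlap leave that sign almost no room to change, so this adds no separate evidence. The median of the members was lowest, at -0.68, when Apatinib replicate 1 was left out and highest, at -0.34, when Apatinib replicate 2 was. Without Apatinib replicate 2 only MCM10 was called lower, where 3.63% of all genes were, and without Apatinib replicate 1 the called members were MCM4, MCM5 and MCM7, against 1.62% of all genes. Without control replicate 1, edgeR called 0 members at a smallest FDR of 0.0804, with 8 at an unadjusted p under 0.05, while 0.497% of all genes were called lower. Without control replicate 2 it called 0 members at a smallest FDR of 0.0789, again with 8 at an unadjusted p under 0.05, while 0.509% of all genes were called. The fold changes in those fits were close to the values above, at -0.70 and -0.67 for MCM4 and -0.96 for MCM10 in both. With all 6 replicates, DESeq2 called 7 members lower (MCM2, MCM3, MCM4, MCM5, MCM7, MCM8 and MCM10), against 7.28% of the genes it gave an adjusted p. The called members were MCM3, MCM4, MCM8 and MCM10 without Apatinib replicate 3 (5.94% of all genes) and MCM4, MCM8 and MCM10 without control replicate 3 (8.89%). With controls 1 and 2 summed as 1 sample, edgeR called 0 members, with 8 at an unadjusted p under 0.05, and 0.508% of all genes. With no filter on low counts the 7 members that DESeq2 called were called (3.87% of all genes). In FPKM, limma called MCM4 and MCM10 on log2(FPKM + 1), where 1.52% of all genes were called lower, and MCM4 alone on log2(FPKM + 0.1), where 1.47% were.

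**Figure D3:**
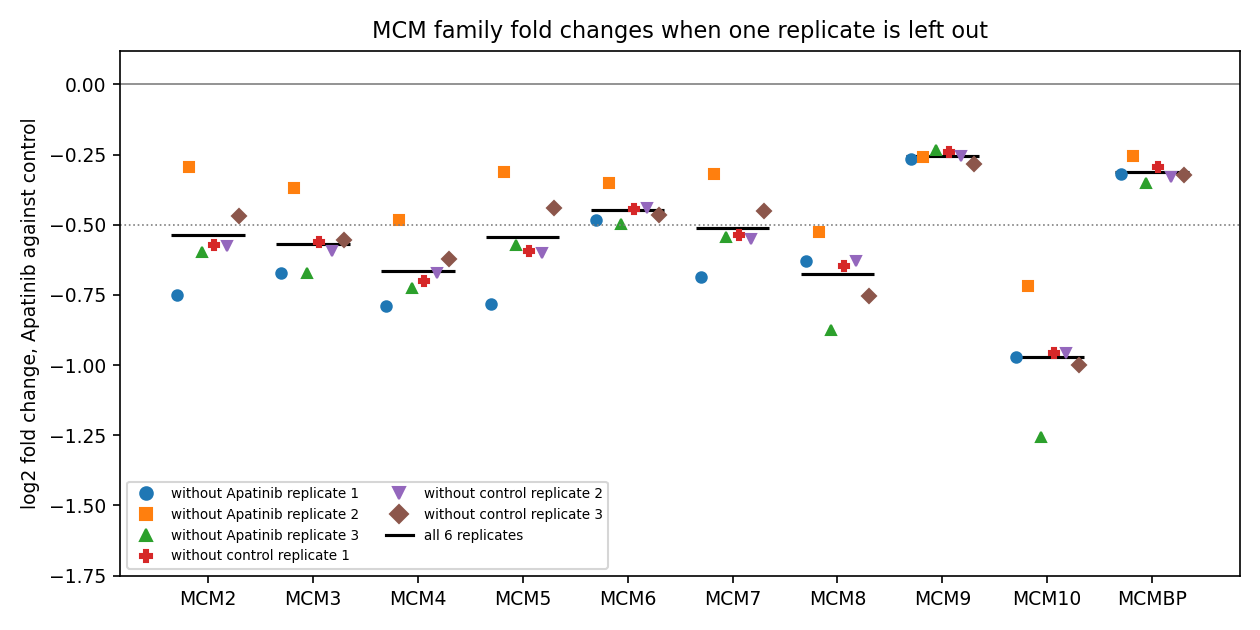
Log2 fold change of each MCM gene (y axis, edgeR) with all 6 replicates (black bar) and with 1 replicate left out (coloured symbols). All values lie below 0, and within each gene except MCM9 the value nearest to 0 is the one without Apatinib replicate 2.

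Per length, the members stood in the same order in both groups. Mean control levels were 102 ± 3.63 FPKM for MCM7, 60.4 ± 1.54 for MCM4, 52.2 ± 1.94 for MCM3, 38.0 ± 2.49 for MCM2, 31.9 ± 2.93 for MCM5 and 25.5 ± 1.35 FPKM for MCM6. They were followed by MCMBP at 17.7 ± 0.575, MCM8 at 17.3 ± 1.59, MCM10 at 5.45 ± 0.575 and MCM9 at 2.01 ± 0.356 FPKM. The RNAs of the hexamer subunits, which stand in equal numbers in the ring, were therefore not at equal levels. Among the control replicates, MCMBP and MCM8 alone had overlapping ranges as neighbours in that order. The order of the control means was the same for all 10 members without control replicate 1 and without control replicate 2. With Apatinib the levels were 72.6 ± 17.3 FPKM for MCM7, 38.3 ± 7.91 for MCM4, 35.7 ± 8.02 for MCM3, 26.9 ± 8.37 for MCM2, 21.8 ± 6.34 for MCM5, 19.1 ± 1.74 for MCM6, 14.8 ± 0.966 for MCMBP, 11.3 ± 3.13 for MCM8, 2.76 ± 1.02 for MCM10 and 1.73 ± 0.205 FPKM for MCM9. There the ranges overlapped between all neighbours from MCM4 down to MCM6, between MCMBP and MCM8, and between MCM10 and MCM9.

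**Figure D4:**
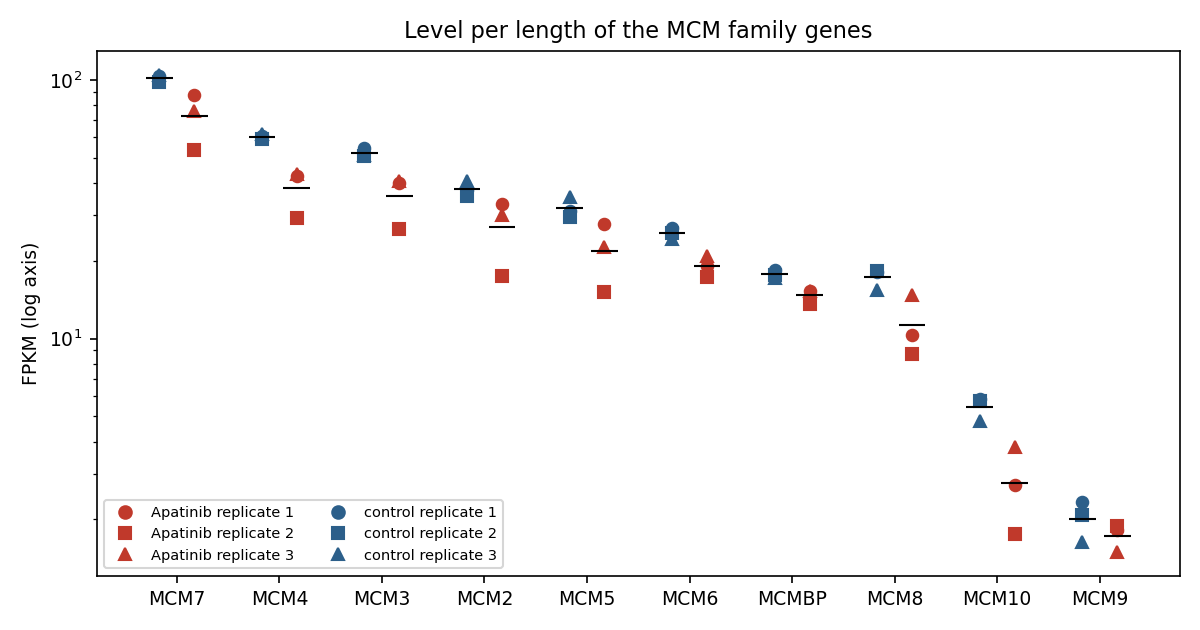
FPKM of each MCM gene (log axis) in each replicate, with genes ordered by their control mean. Blue symbols are control and red symbols Apatinib replicates, and black bars are group means. MCM7 is the highest and MCM9 the lowest in both groups.

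The makeup of the hexamer RNA was compared as the share of each gene in the summed FPKM of MCM2 to MCM7. That sum was 250, 159 and 234 FPKM in Apatinib replicates 1 to 3 and 314, 299 and 318 FPKM in control replicates 1 to 3. The share of MCM4 was 17.9% ± 0.820 with Apatinib and 19.5% ± 0.237 in the control, a difference of -1.56 percentage points, and the groups did not overlap. The exact two-sided permutation test over samples gave p = 0.1 for it, the smallest p that 3 against 3 replicates allow, and 0.6 after adjustment over the 6 genes. Without control replicate 1 the difference was -1.68 points and without control replicate 2 it was -1.44 points, with an exact permutation p of 0.1 in both, again the smallest allowed. The share of MCM6 was 7.60%, 10.9% and 8.90% in Apatinib replicates 1 to 3, against 8.55%, 8.57% and 7.61% in control replicates 1 to 3, and was highest where the summed level was lowest. For the other 5 genes the exact permutation p was between 0.4 and 0.9. A change in the makeup of the RNA could therefore not be shown with this number of replicates.

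Genes that load, start, accompany and unload the helicase were taken as a list of 39, all of which passed the filter. Of these, 37 had a lower log2 estimate with Apatinib (49.7% of all genes), and in 30 each Apatinib value was under each control value (15.7% of all genes). By edgeR 19 were called lower (5.48% of all genes) and 0 higher (5.97%), with 20 past the FDR limit in the lower direction (6.07%). Their median log2 fold change was -0.55, near that of the MCM genes. DESeq2 called 21 of the list lower, against 7.28% of all genes. Without control replicate 1 (0.497% of all genes called lower), and likewise without control replicate 2 (0.509%), edgeR called only CLSPN and MMS22L, so the count of 19 became 2, while 31 and 30 of the 39 had no overlap between the groups (17.7% of all genes in either case).

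Of 9 genes for loading, 4 were called lower (5.48% of all genes), and the median was -0.51 on the log2 scale. CDC6, the ATPase that recruits MCM2 to MCM7 to the origin, fell from 94.9 ± 3.26 to 66.5 ± 6.59 CPM (log2 fold change -0.51, edgeR FDR = 0.0224). GMNN, whose product geminin blocks loading by binding CDT1, fell too, from 52.6 ± 5.71 to 31.8 ± 6.56 CPM (log2 fold change -0.72, edgeR FDR = 0.0189). Thus a loader and an inhibitor of loading were both lower.

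Of 13 genes for activation, 9 were called lower (5.48% of all genes), with a median of -0.62. CDC7, the kinase that phosphorylates MCM subunits, had 22.9, 23.9 and 32.0 CPM with Apatinib and 58.8, 60.2 and 38.0 CPM in the control, where control replicate 3 stood nearest to the Apatinib group (log2 fold change -0.99, edgeR FDR = 0.0118). CDC45 (log2 fold change -0.55, edgeR FDR = 0.0196) and GINS2 (-0.94, edgeR FDR = 0.0215), parts of the active helicase together with the MCM ring, were lower, as were TICRR (-0.77, edgeR FDR = 0.0134) and DONSON (-0.62, edgeR FDR = 0.0223), which act in bringing these parts to the ring.

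Of 12 genes at the fork, 6 were called lower (5.48% of all genes), with a median of -0.57, and all 12 had no overlap between the groups (15.7% of all genes). CLSPN, which couples the helicase to the replication checkpoint, had 24.2, 17 and 28.6 CPM with Apatinib and 57.9, 63.3 and 51.8 CPM in the control, and its log2 fold change was -1.31 (edgeR FDR = 0.00361). MMS22L, the partner of TONSL in handling newly made chromatin, had 27.4, 22.8 and 34.1 CPM with Apatinib and 63.4, 58.3 and 46.5 CPM in the control, and its log2 fold change was -1.0 (edgeR FDR = 0.00775). POLA1, the catalytic subunit of the polymerase that primes synthesis, was also lower (log2 fold change -0.82, edgeR FDR = 0.0106).

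The remaining steps had 0 calls by edgeR. C17orf53, the older symbol of HROB, which loads MCM8 and MCM9, had 15.4, 10.7 and 13.9 CPM with Apatinib and 13.1, 15.3 and 16.5 CPM in the control, so the groups overlapped (log2 fold change -0.17, edgeR FDR = 0.552). Among 3 genes for unloading, TRAIP, a ubiquitin ligase acting on the helicase at stalled or converged forks, had the smallest p (log2 fold change -0.45, edgeR FDR = 0.0584). FAF1, named after its values were seen, was one of the 2 genes of the list whose estimate was above 0 (log2 fold change 0.05, edgeR FDR = 0.798). The other was MCMDC2, an ATPase gene of related sequence with a role in meiosis, at 2.73, 5.14 and 3.89 CPM with Apatinib and 4.56, 3.46 and 2.84 CPM in the control (log2 fold change 0.12, edgeR FDR = 0.799).

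**Figure D5:**
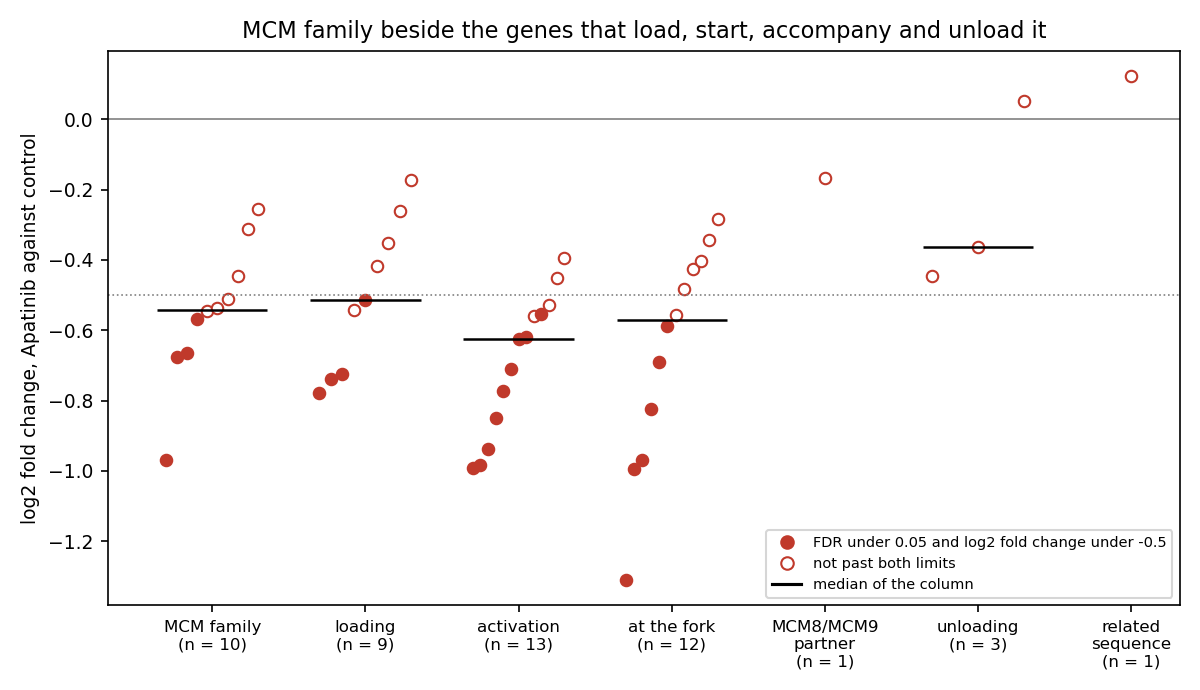
Log2 fold change between the Apatinib and the control group (y axis, edgeR) of the MCM genes and of 39 genes grouped by the step at which they act (x axis). Filled circles passed both limits, black bars are medians of columns with several genes, and MCMDC2 and FAF1 are the circles above 0.

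The mean profile of MCM2 to MCM7 over the 6 replicates was compared with 10329 genes of a mean of at least 10 CPM, by the root mean square difference of log2 CPM after each gene was centred on its own mean. The nearest gene outside the family was TMEM97, which encodes the sigma-2 receptor of the endoplasmic reticulum, at a distance of 0.0174 log2 units (log2 fold change -0.53, edgeR FDR = 0.0592). It was followed by POLE, the catalytic subunit of the leading strand polymerase, at 0.0316, then by KIF18B, a kinesin of mitotic microtubules, at 0.0416, ESPL1, the protease separase, at 0.0417, and CHAF1A, a subunit of a histone chaperone at the fork, at 0.0446. Without control replicate 1, and likewise without control replicate 2, 4 of these 5 genes were again among the nearest 5, with TMEM97 first. By Pearson correlation only 2 of the 5, TMEM97 and POLE, were. Within the family, MCM7 was nearest to this profile, at 0.0347, though it is part of the mean. MCM10 lay farther away, at 0.301, at rank 1837 of the genes compared. This likeness is a description over 6 replicates of 2 groups, which share the difference between the groups and the low values of Apatinib replicate 2.

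Some members share exon sequence with other genes, and whether the counts used the strand is not given in the sources used here. In the GENCODE 29 annotation, 22.7% of the exon bases of MCM2 lay opposite the antisense gene AC023593.1, 8.94% of those of MCM7 lay opposite AP4M1, and 1.10% and 0.800% of those of MCM9 lay opposite ASF1A and AL137009.1. MCM2 also shared 0.918% with TPRA1. Reads of these stretches cannot be assigned to one gene without strand, so the values of MCM2, MCM7 and MCM9 carry that limit. MCM3, MCM4, MCM5, MCM6, MCM8, MCM10 and MCMBP shared no exon bases with another gene. The miRNA genes MIR25, MIR93 and MIR106B, which lie inside MCM7, had 0 to 18 counts in a replicate, too few to describe.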

How the data were processed

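The authors deposited a table of raw counts per gene, which was not normalized, and FPKM values for each replicate. The submitters' processing notes name CASAVA, STAR 2.7.1a and hg19. The counting program, its annotation and its use of strand are not given in the sources used here. The study's methods describe 3 biological replicates per group and DESeq2 with an FDR limit of 0.05 and a log2 fold change limit of 0.5, and the same limits were used here. One extra column of per-sample values was not used (1 column), and fold change or p-value tables of the authors were not used.

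The counts were then fitted with edgeR 4.0.16 in R 4.3.3, using filterByExpr, TMM factors (0.952 to 1.03) and the quasi-likelihood F test of the 16290 genes that passed, with Benjamini-Hochberg adjustment (FDR) over all of them. Log2 CPM used a prior count of 2. Levels between genes were compared in the deposited FPKM values. DESeq2 1.42.0 and limma 3.58.1, run on log2(FPKM + 1) or log2(FPKM + 0.1) where the mean FPKM exceeded 0.5, were alternatives. The models were run on simulated counts with the same spread for all genes. That simulation held no outlying replicate and no pair of nearly alike controls, so it does not show how the models handle them. Total counts of 17043314 to 22067558 set the counting precision, and with 3 replicates a group the p-values measure the spread between these replicates only.

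The members, the list of 39 genes and the tests were chosen with earlier results of these data known. The genes named were all members, the 10 called genes of the list with the smallest p, the gene with the smallest p at each step, and the 5 genes nearest in pattern. Promoters are the entries with the most upstream start of each gene in RefSeq (GRCh38.p14), and exon overlaps come from GENCODE 29 (GRCh38). No coordinates of the 2 builds were mixed. Protein sequences were not used here.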

Additional observations from a re-analysis of the deposited data

How the results depend on the processing

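No log2 fold change of the 10 members changed sign under any of the alternatives run. For the fits that left out 1 replicate this follows almost of itself, since the groups did not overlap in CPM for any member. Members called lower numbered 4 in the main fit (5.48% of all genes). The number was 7 with DESeq2 (7.28%) and 7 with no filter on low counts (3.87%). It was 2 and 1 with limma on log2(FPKM + 1) and log2(FPKM + 0.1) (1.52% and 1.47%). When 1 replicate was left out it was 0 to 4, where 0.497% to 8.89% of all genes were called lower. With controls 1 and 2 summed as 1 sample, edgeR called 0 members (0.508% of all genes). In that fit 8 members had an unadjusted p under 0.05, where DESeq2 on all 6 replicates called 7. The replicate numbers are not known to pair the groups: the deviations from the group mean of same-numbered samples correlated across genes at -0.259, 0.0808 and -0.220. With the replicate number as a block, edgeR called 7 members lower, and 1168 of all 16290 genes. Without the block the count stayed at 4 with DESeq2's size factors in edgeR, where 903 of 16290 genes were called lower. It also stayed at 4 with at least 10 counts in every sample, where 870 of 14860 genes were.

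The number of genes called among all those tested (1866) was 796 and 810 under the same limma settings, 292 with controls 1 and 2 summed, and 275 to 2594 when 1 replicate was left out. The number called in the list of 39 genes (19) was 9 and 8 with limma, 2 with the controls summed, and 2 to 18 when 1 replicate was left out, while its median log2 fold change stayed between -0.61 and -0.45. By Pearson correlation, 2 of the 5 genes nearest to the hexamer profile, TMEM97 and POLE, were found again, and 4 of the 5 were when control replicate 1 or 2 was left out, an alternative chosen after seeing the data. The cause of these differences was not tested. For MCM2, a log2 fold change near 0.5 with an SE of 0.207 was not separated from 0 after adjustment in the main edgeR fit. MCM2 was called in 3 of 8 other settings and in 0 of 6 fits that left out 1 replicate. Those 3 were DESeq2 (DESeq2 FDR = 0.0492), the replicate block (edgeR FDR = 0.0165) and no filter on low counts (edgeR FDR = 0.0059).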
